A study of Mus musculus with 6 samples.

Results

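Skeletal muscle genes were examined in bulk RNA sequencing of 6 mouse breast tumors. The set holds 45 genes chosen by name: the proteins of the sarcomere, the calcium pumps and channels that drive contraction, the enzymes that feed it and the myogenic transcription factors *Myod1* and *Myog*. Of these, 44 were listed in at least 1 tumor, among 18460 listed genes, and only *Myl3* was listed in none. The test group held 3 tumors from K14-TSLPtg;PyMTtg;Rag1KO mice and the control group 3 tumors from PyMTtg;Rag1KO mice. All mice were Balb/c, lacked *Rag1* and so had no T or B cells of their own, received CD4+ T cells at 4 weeks of age, and had tumors collected at 18 to 20 weeks. The PyMT oncogene is driven by the MMTV promoter in mammary epithelium, and the TSLP transgene, the difference between the groups, by the K14 promoter of keratinocytes. Libraries were made from whole tumor tissue, so a lower level can mean fewer cells of a type or less RNA per cell, which cannot be told apart.

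Skeletal muscle is built of long fibers in which myosin thick filaments pull on actin thin filaments when calcium is released from the sarcoplasmic reticulum. Fast fibers, specialized for brief strong contractions, and slow fibers, specialized for endurance, use different gene copies for many of the same parts, including the myosin chains, the troponins and the calcium stores. These genes are not characteristic of mammary epithelium, but sheets of skeletal muscle lie close to the mammary fat pads of the mouse.

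The muscle genes made up a small and very uneven part of the libraries, which held 8373390 to 9449565 expected counts each. Test replicate 1 had 19643 counts from the 45 genes, or 0.235% of its library (95% Wilson interval 0.231% to 0.238%). Test replicates 2 and 3 had 3465 and 2386 counts, or 0.0404% (0.0391% to 0.0418%) and 0.0252% (0.0243% to 0.0263%). Control replicate 2 had 4157 counts, or 0.0467% (0.0453% to 0.0481%), above test replicates 2 and 3. Control replicates 1 and 3 had 337 and 448 counts, or 0.00364% (0.00327% to 0.00405%) and 0.00493% (0.00449% to 0.00541%). The share in test replicate 1 was thus 5.03 times that in control replicate 2 and 64.6 times that in control replicate 1, while the share in control replicate 2 was 12.8 times that in control replicate 1. The groups overlapped because of control replicate 2. The intervals here and below hold counting error alone and say nothing of how tumors of a group vary.

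**Figure D1:**
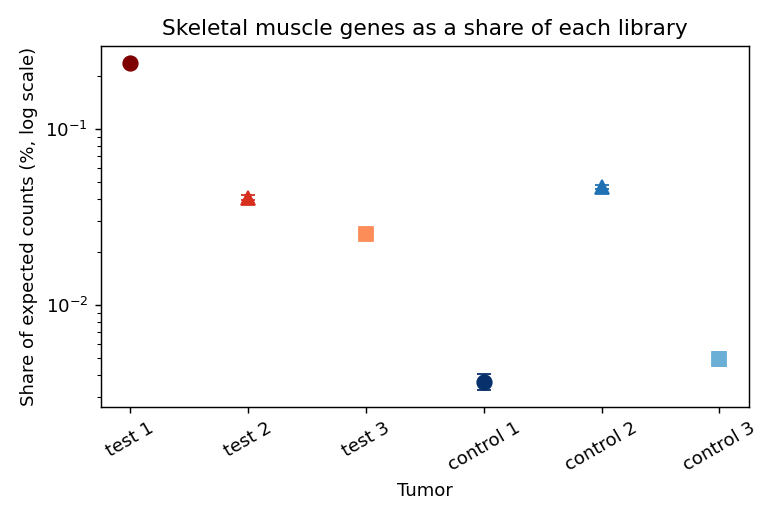
Share of each tumor's expected counts that came from the 45 skeletal muscle genes, in percent on a log axis. Points are single tumors and bars are 95% Wilson intervals; test replicate 1 lies highest at 0.235%, control replicates 1 and 3 lie lowest at 0.00364% and 0.00493%, and control replicate 2 at 0.0467% lies among the test tumors.

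No muscle gene passed the test between the groups. Of the 45 genes, 32 passed the filter on low counts, and 0 of them reached an adjusted p of 0.05 by the quasi-likelihood test of edgeR, where p was adjusted by Benjamini-Hochberg over 13706 genes, of which 0% were called. Over all tested genes 1153 had an unadjusted p under 0.05. At an adjusted p of 0.05 DESeq2 called 344 of 18383 genes and 0 of the 40 muscle genes that it gave a p. It gave none for *Atp2a1*, *Myh2*, *Ttn* and *Neb*, so its 0 does not cover these genes. Adjusted p from edgeR, the test behind every such p here, ran from 0.483 to 0.995. All 32 fitted log2 fold changes were above 0, where 51.5% of all tested genes were, and their median was 2.33 against 0.018 for all tested genes. That median was 1.19 without test replicate 1 and 5.28 without control replicate 2. The filter keeps a gene that reaches its minimum in any 3 tumors, so these 32 were kept largely by their reads in the test tumors and control replicate 2, and the counts over them describe those genes alone. An unadjusted p under 0.05 with a higher test mean was found for 7 of the 32, beside 3.15% of all tested genes, and with a lower test mean for 0, beside 5.26%. They were *Eno3*, *Pvalb*, *Mb*, *Myoz1*, *Pygm*, *Actn2* and *Actn3*. Counted in either direction, this number was 0 of 33 without test replicate 1, beside 1124 of all 14092 tested genes. It was 5 of 34 without test replicate 2 (beside 1145 of 14033) and 14 of 34 without test replicate 3 (1085 of 14137). It was 0 of 35 without control replicate 1 (beside 654 of 14056) and 1 of 35 without control replicate 3 (701 of 14024). Without control replicate 2 it was 29 of 33, beside 2020 of 14166.

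Control replicate 2 also stood apart from the other control tumors over the whole transcriptome. Its log2 CPM (counts scaled by the TMM library size) had a Pearson correlation across genes of 0.874 and 0.908 with control replicates 1 and 3, and of 0.921, 0.927 and 0.935 with test replicates 1, 2 and 3. Without control replicate 2, 3 of 33 tested muscle genes passed a false discovery rate of 0.05, all higher in the test tumors. They were *Myl1*, *Mylpf* and *Xirp2*, at edgeR adjusted p of 0.0289, 0.0489 and 0.0461. In that comparison 182 of 14166 genes (1.28%) passed, of which 12 were higher in the test tumors. Summed markers of mammary luminal epithelium, a list of 8 genes, all tested, moved with the same tumors. They reached 5955, 5996 and 6035 CPM in test replicates 1 to 3 and 4641 CPM in control replicate 2, against 2333 and 2156 CPM in control replicates 1 and 3. Their part in the muscle result was not tested. *Tslp* itself, the transgene, had 12, 7 and 2 counts in test replicates 1 to 3 and 2 or 3 in each control tumor, so that test replicate 3 lay among the control values, *Rag1* had 4 to 27 counts per tumor and *Cd4* 9 to 35.

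The order of the tumors was alike for most tested muscle genes, while the size of the gaps varied from gene to gene. Test replicate 1 held the highest level of 28 of the 32 tested genes, beside 18.5% of all tested genes. The 3 test tumors and control replicate 2 were the 4 highest tumors for 29 of the 32, beside 13.3% of all tested genes, and for 7 of the 8 luminal markers. Reads in those tumors also let genes pass the filter. The exceptions among the 32 were *Mylk2*, *Casq2* and *Pgam2*. Control replicate 1 or 3 was lowest for 31 of the 32, beside 31.3% of all tested genes. In control replicate 1, 26 of the 45 genes lay under a floor of 3 counts and 14 were at 0, whereas in test replicate 1 only 4 lay under it.

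**Figure D2:**
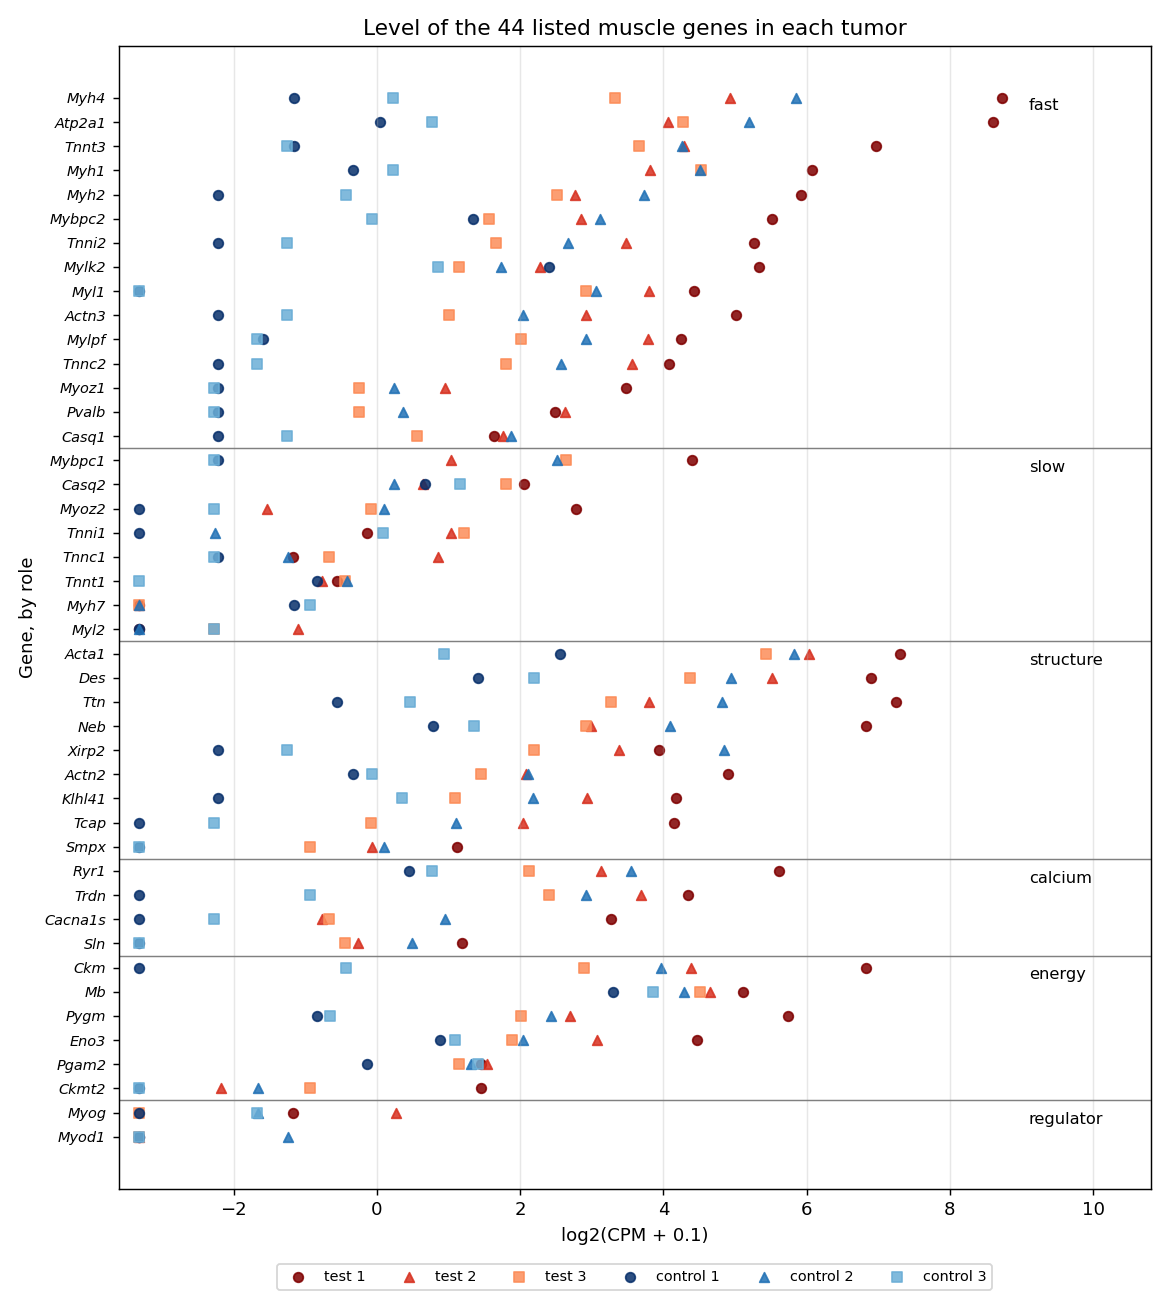
Level of each of the 44 listed muscle genes in each tumor as log2(CPM + 0.1), sorted by role and then by mean level. Red and orange symbols are the 3 test tumors and blue symbols the 3 control tumors; for 28 of the 32 tested genes the rightmost symbol is test replicate 1, and control replicate 2 lies within or above the range of test replicates 2 and 3 for all 15 fast fiber genes.

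The myosin heavy chains are the motors of the thick filament, and each fiber type is defined by the copy it uses. *Myh4*, the chain of the fastest fibers, had 3661, 249 and 93 counts in test replicates 1 to 3 and 3, 535 and 10 in control replicates 1 to 3. Test tumors averaged 154 ± 232 CPM and control tumors 19.8 ± 33.0 CPM (SD, n = 3 each). The log2 fold change was 2.96 (SE 1.88, edgeR adjusted p = 0.709), but 0.02 without test replicate 1 and 7.73 without control replicate 2. *Myh1*, of intermediate fast fibers, had 586, 114 and 216 counts in the test tumors and 6, 209 and 10 in the control tumors, in the same replicate order. *Myh2*, of fast oxidative fibers, had 522, 55 and 53 counts in the test and 1, 122 and 6 in the control tumors. For each of the 3 fast chains control replicate 2 exceeded at least 1 test tumor. *Myh7*, the slow chain that the heart ventricle also uses, had no counts in any test tumor or in control replicate 2, and 3 and 4 counts in control replicates 1 and 3.

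The mix of fast chains differed between tumors. *Myh4* supplied 76.8% (95% Wilson interval 75.5% to 77.9%) of the 4769 counts of these 4 chains in test replicate 1, 59.6% (54.8% to 64.2%) of 418 in test replicate 2 and 61.8% (58.5% to 65.0%) of 866 in control replicate 2. In test replicate 3 the order was turned, with 59.7% (54.5% to 64.6%) of 362 counts from *Myh1* and 25.7% (21.5% to 30.4%) from *Myh4*. *Myh2* was steadier, at 10.9%, 13.2%, 14.6% and 14.1% in test replicates 1 to 3 and control replicate 2. The 0 counts of *Myh7* allow it a share of up to 0.0629%, 0.718%, 0.829% and 0.346% in those 4 tumors. Control replicates 1 and 3 had only 13 and 30 counts of the 4 chains, too few to order them. *Myh2*, *Myh1* and *Myh4* lie side by side on chromosome 11 (GRCm38, 67171027 to 67260447) and share sequence. Their expected counts were not whole in most tumors, so the split between them is an estimate.

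**Figure D3:**
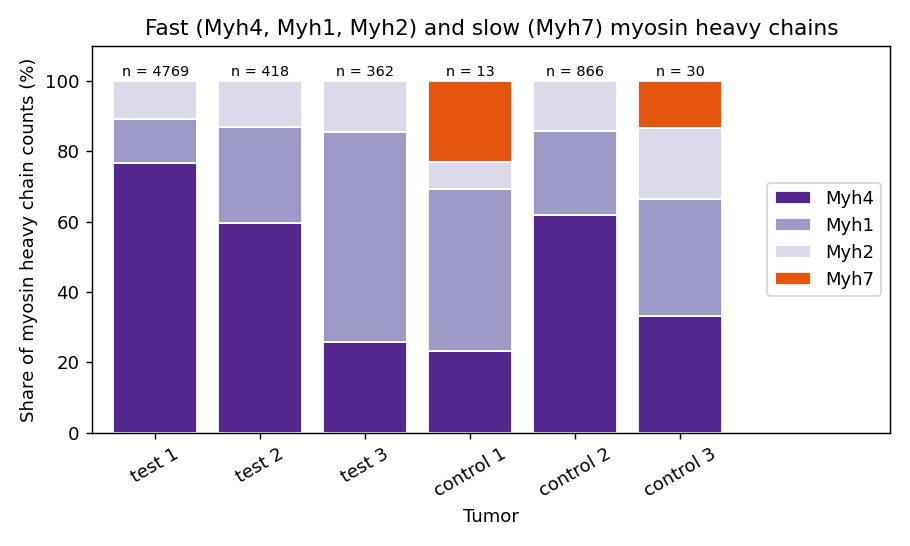
Share of the counts of 4 adult myosin heavy chains taken by each chain in each tumor, in percent, with the number of counts above each bar. *Myh4* leads in test replicates 1 and 2 and control replicate 2, *Myh1* leads in test replicate 3 at 59.7%, and *Myh7* appears only in control replicates 1 and 3, which had 13 and 30 counts.

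The upstream sequences of 4 genes are shown: *Myh4*, *Acta1* and *Ckm*, among the most abundant muscle genes, and *Myh7*, the slow chain with 0 to 4 counts per tumor. Each is the 250 bases before the first listed RefSeq start, read 5′ to 3′ on the gene's strand of GRCm38.p6. Capitals mark an E-box CAGCTG, the MEF2 motif or the CArG box, which are known as sequences bound by MyoD family factors, MEF2 factors and serum response factor. The windows are chr11:67237562-67237811 on the plus strand for *Myh4*, chr14:54994627-54994876 on the minus strand for *Myh7*, chr8:123894776-123895025 on the minus strand for *Acta1* and chr7:19410844-19411093 on the plus strand for *Ckm*.
Myh4: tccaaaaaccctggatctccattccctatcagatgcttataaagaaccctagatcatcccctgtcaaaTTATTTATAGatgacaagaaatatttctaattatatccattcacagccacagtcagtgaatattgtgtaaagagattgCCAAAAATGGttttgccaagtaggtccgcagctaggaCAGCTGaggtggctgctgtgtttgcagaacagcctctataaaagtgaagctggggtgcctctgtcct
Myh7: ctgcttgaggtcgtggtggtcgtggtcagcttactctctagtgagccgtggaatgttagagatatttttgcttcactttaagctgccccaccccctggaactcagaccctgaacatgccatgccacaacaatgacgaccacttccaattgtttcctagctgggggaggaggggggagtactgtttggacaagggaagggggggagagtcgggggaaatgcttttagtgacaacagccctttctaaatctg
Acta1: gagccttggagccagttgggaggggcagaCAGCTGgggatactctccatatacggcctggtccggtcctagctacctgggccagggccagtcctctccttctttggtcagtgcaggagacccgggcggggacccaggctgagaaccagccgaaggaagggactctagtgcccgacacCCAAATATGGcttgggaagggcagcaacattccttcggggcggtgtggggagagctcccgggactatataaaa
Ckm: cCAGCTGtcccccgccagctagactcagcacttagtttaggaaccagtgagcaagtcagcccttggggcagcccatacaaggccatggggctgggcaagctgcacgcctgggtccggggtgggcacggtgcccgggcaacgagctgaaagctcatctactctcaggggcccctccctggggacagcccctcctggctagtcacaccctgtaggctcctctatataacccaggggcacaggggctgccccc
The *Myh4* window holds all 3 motifs, *Acta1* an E-box and a CArG box, *Ckm* an E-box at its far end and *Myh7* none of the letters searched. RefSeq windows were found for 35 of the 45 genes. On either strand the E-box CAGCTG was in 16 of these 35 (45.7%), beside 12.8% of 27025 gene promoters of the same length, the E-box CAGGTG in 10 (28.6%, beside 17.1%), the MEF2 motif in 9 (25.7%, beside 3.01%) and the CArG box in 3 (8.57%, beside 1.4%). A match is a description of the letters and not a binding site.

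The fast light chains and troponins repeated the pattern of the fast heavy chains, and most of their slow partners lay near the floor. Among the fast light chains, *Myl1* had 186, 113 and 70 counts in test replicates 1 to 3 and 0, 76 and 0 in control replicates 1 to 3. *Mylpf*, the fast regulatory light chain, had 164, 112 and 37 counts in the test and 2, 69 and 2 in the control tumors. Both ran from test replicate 1 down to control replicates 1 and 3, with control replicate 2 above test replicate 3. Their slow partners *Myl2* and *Myl3* had at most 3 counts in any tumor and no listed counts, respectively. *Tnnt3*, the fast troponin T that anchors the complex to the thin filament, had 1081, 160 and 118 counts in the test tumors and 3, 176 and 3 in the control tumors. *Tnnt1*, its slow partner, had 5, 4 and 6 counts in the test and 4, 6 and 0 in the control tumors. The slow troponin T was thus close to its floor in every tumor, with groups that overlapped.

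Troponin I, the inhibitory subunit, had more slow counts in test replicate 3 than the other troponins. *Tnni2*, the fast copy, had 332, 90 and 29 counts in test replicates 1 to 3 and 1, 58 and 3 in control replicates 1 to 3, with a log2 fold change of 2.95 (SE 1.38, edgeR adjusted p = 0.637), which was 1.64 without test replicate 1 and 6.22 without control replicate 2. *Tnni1*, the slow copy, had 7, 16 and 21 counts in the test and 0, 1 and 9 in the control tumors. Test replicate 3, lowest of the test tumors for *Tnni2*, was highest for *Tnni1*. In FPKM, which is per gene length, *Tnni2* was 75.3 times *Tnni1* in test replicate 1, 8.93 times in test replicate 2, 2.30 times in test replicate 3 and 92.1 times in control replicate 2. Of the calcium-binding subunit, the fast *Tnnc2* had 146, 96 and 32 counts in the test and 1, 54 and 2 in the control tumors. The slow *Tnnc1*, also used by the heart, had 3, 14 and 5 counts in the test and 1, 3 and 1 in the control tumors. It did not pass the filter. Test replicate 1 and control replicate 2 tied at 3 counts, and only scaling by library size set them apart, at 0.346 and 0.324 CPM.

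Not all genes named for slow fibers were low. *Mybpc1*, the slow-type myosin-binding protein C, had 183, 16 and 58 counts in test replicates 1 to 3 and 1, 52 and 1 in control replicates 1 to 3. Its fast partner *Mybpc2* had 396, 58 and 27 counts in the test and 21, 79 and 8 in the control tumors. In FPKM, *Mybpc2* was 0.503 times *Mybpc1* in test replicate 3 and 1.65 to 20.7 times in the other 5 tumors. *Myoz2*, the slow-type calsarcin of the Z-disc, had 59, 2 and 8 counts in the test and 0, 9 and 1 in the control tumors, and the fast-type *Myoz1* had 95, 15 and 7 in the test and 1, 10 and 1 in the control tumors. Each of these 4 genes had its highest level in test replicate 1. *Casq2*, the calsequestrin of heart and slow muscle, was spread more evenly, with 35, 12 and 32 counts in the test and 13, 10 and 20 in the control tumors. Its fast partner *Casq1*, which binds calcium in the sarcoplasmic reticulum, had 26, 27 and 13 counts in the test and 1, 33 and 3 in the control tumors.

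Summed over the 15 fast fiber genes, FPKM was 526, 110 and 51.0 in test replicates 1 to 3 and 3.93, 94.4 and 3.74 in control replicates 1 to 3. Summed over the 8 listed slow fiber genes it was 15.4, 6.51 and 7.34 in the test and 1.26, 4.15 and 2.37 in the control tumors. Fast genes thus held 97.2%, 94.4% and 87.4% of the fast and slow FPKM in the test tumors and 75.7%, 95.8% and 61.2% in the control tumors, means of 93.0% ± 5.02 and 77.6% ± 17.4 (SD, n = 3 each). The groups overlapped, since control replicate 2 lay above test replicates 2 and 3. The difference of 15.4 percentage points was 24.5 without control replicate 2 and 7.25 without control replicate 3. The 2 tumors with the lowest fast share, control replicates 1 and 3, were those with the fewest counts, with 95 and 83 fast and 22 and 37 slow, against 921 or more fast counts in each other tumor. In control replicate 1, *Mylk2* and *Mybpc2* supplied 45 and 21 of the 95 fast counts. *Mylk2*, whose counts were not whole, supplied 1.64 of the 3.93 fast FPKM there. No test was made of this share because its genes were chosen with earlier results known.

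**Figure D4:**
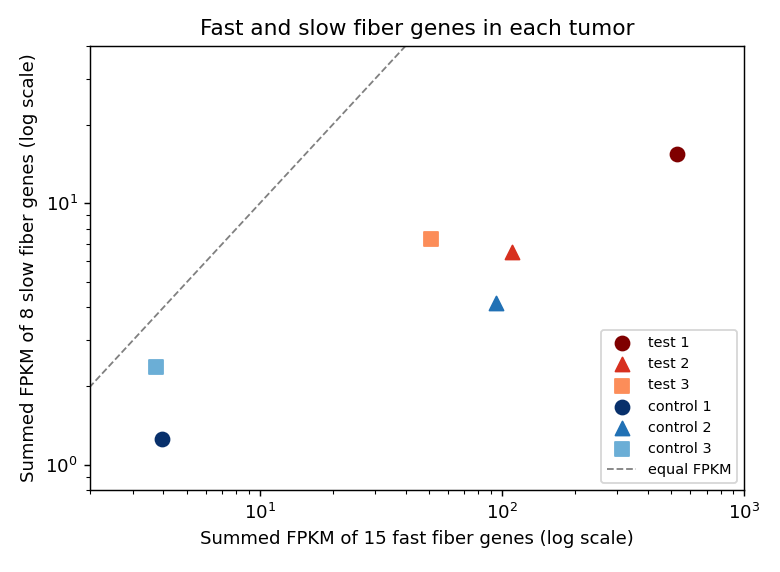
Summed FPKM of 15 fast fiber genes (horizontal, log scale) against 8 slow fiber genes (vertical, log scale), with 1 point for each tumor. All 6 tumors lie below the dashed line of equal FPKM; fast FPKM spans 3.74 to 526 and slow FPKM 1.26 to 15.4.

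Calcium handling genes of fast fibers reached some of the highest levels. *Atp2a1*, the SERCA1 pump that returns calcium to the sarcoplasmic reticulum of fast fibers, had 3386, 137 and 181 counts in test replicates 1 to 3 and 8, 338 and 15 in control replicates 1 to 3. It had the largest log2 fold change of the 32 tested muscle genes, 3.44 (SE 1.70, edgeR adjusted p = 0.655), yet control replicate 2 exceeded test replicates 2 and 3. Without test replicate 1 it was 0.46, below that of *Pvalb* at 2.81, and without control replicate 2 it was 6.79. *Pvalb*, the parvalbumin that buffers calcium in fast fibers, had 48, 50 and 7 counts in the test and 1, 11 and 1 in the control tumors (log2 fold change 3.08, SE 1.11, with an edgeR p of 0.0255 unadjusted and 0.513 adjusted). It was 1 of 2 tested muscle genes, with *Pgam2*, highest in test replicate 2.

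The release channel and its voltage sensor were present at lower levels. *Ryr1*, the calcium release channel, had 425, 71 and 40 counts in test replicates 1 to 3 and 11, 107 and 15 in control replicates 1 to 3. *Cacna1s*, the voltage sensor that opens it, had 83, 4 and 5 counts in the test and 0, 17 and 1 in the control tumors and did not pass the filter. *Trdn*, the triadin that links the channel to calsequestrin, had 175, 105 and 49 counts in the test and 0, 69 and 4 in the control tumors. *Sln*, the sarcolipin that restrains the calcium pump, had 19, 6 and 6 counts in the test and 0, 12 and 0 in the control tumors. All 4 were highest in test replicate 1, and control replicate 2 lay above at least 1 test tumor for each.

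Structural genes used by both fiber types followed the same tumors. *Acta1*, the skeletal muscle actin, had 1373, 535 and 405 counts in test replicates 1 to 3 and 50, 522 and 17 in control replicates 1 to 3. Its log2 fold change was 2.06 (SE 1.12, edgeR adjusted p = 0.686), and it was 1.34 without test replicate 1 and 4.55 without control replicate 2. Its counts were not whole in any of the 6 tumors, and near-identical actins such as *Acta2*, with 1257 to 16002 counts per tumor, may share its reads, so its low values in control replicates 1 and 3 are uncertain. *Ttn*, the giant spring of the sarcomere, had 1316, 113 and 90 counts in the test and 5, 259 and 12 in the control tumors. Over its length of 88666 to 101674 bases, that is 1.74 FPKM in test replicate 1, against 111 FPKM for *Acta1* and 123 FPKM for *Tnnt3* in that tumor. *Neb*, the ruler of the thin filament, had 979, 64 and 70 counts in the test and 14, 157 and 23 in the control tumors. *Des*, the muscle intermediate filament, which smooth muscle also makes, had 1028, 374 and 193 counts in the test and 22, 285 and 42 in the control tumors.

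*Xirp2*, an actin-binding protein of muscle attachment sites, was the exception in this group. It had 133, 84 and 42 counts in test replicates 1 to 3 and 1, 265 and 3 in control replicates 1 to 3, so that control replicate 2 was above every test tumor. Its log2 fold change of 0.04 (SE 1.49, edgeR adjusted p = 0.995) turned to -0.41 without test replicate 1, to -0.54 without control replicate 1 and to -0.53 without control replicate 3, and was 5.42 without control replicate 2. The other structural genes, *Actn2*, *Actn3* of fast fibers, *Tcap*, *Klhl41* and *Smpx*, had 18 to 279 counts in test replicate 1 and at most 11 in control replicate 1 or 3. *Mylk2*, the kinase of the skeletal light chain, had 350, 39 and 20 counts in the test and 45, 30 and 16 in the control tumors, and was above test replicates 2 and 3 in control replicate 1. Its counts too were not whole in any tumor.

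Among genes of energy supply, *Ckm*, the muscle creatine kinase that restores ATP, had 976, 171 and 69 counts in test replicates 1 to 3 and 0, 143 and 6 in control replicates 1 to 3. *Pygm*, the muscle glycogen phosphorylase, had 462, 52 and 37 counts in the test and 4, 49 and 5 in the control tumors (log2 fold change 3.32, SE 1.29, edgeR adjusted p = 0.547). *Eno3*, the muscle enolase, had 191, 68 and 34 counts in the test and 15, 37 and 19 in the control tumors, and the lowest adjusted p of the muscle genes, 0.483, at a log2 fold change of 2.12 (SE 0.72, edgeR). Without test replicate 1 these log2 fold changes were 1.28 for *Pygm* and 1.19 for *Eno3*, and without control replicate 2 they were 5.37 and 2.58. For all 3 genes control replicate 2 overlapped the test tumors. *Ckmt2*, the mitochondrial creatine kinase, had 23 counts in test replicate 1 and at most 4 in each other tumor.

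Myoglobin had reads in every tumor. *Mb*, which stores oxygen in slow and oxidative fibers and in the heart, had 299, 206 and 214 counts in test replicates 1 to 3 and 84, 180 and 135 in control replicates 1 to 3. It was the only 1 of the 32 tested muscle genes whose groups did not overlap, beside 6.12% of all tested genes that were higher in every test tumor, so the share of muscle genes was no larger than that of all genes. Test tumors averaged 27.4 ± 6.21 CPM and control tumors 14.5 ± 4.87 CPM (SD, n = 3 each). The log2 fold change was 0.92 (SE 0.34, edgeR adjusted p = 0.526), and an exact permutation test (two-sided) had p = 0.1, the smallest that 3 tumors against 3 allow. *Mb* made up 24.9% and 30.1% of all muscle gene counts in control replicates 1 and 3, and 1.52% in test replicate 1.

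The range over the 6 tumors separated *Mb* and a pair of other genes from the remainder. For the 17 genes with at least 3 counts in every tumor, the highest level was 3.47 times the lowest for *Pgam2*, the muscle phosphoglycerate mutase, 3.55 times for *Mb* and 3.73 times for *Casq2*. It was 12.7 times for *Eno3*, 23.7 times for *Mylk2*, 38.5 times for *Ryr1*, 87.4 times for *Acta1* and 1216 times for *Myh4*. *Pgam2* had 23, 23 and 20 counts in the test and 7, 22 and 24 in the control tumors, so that only control replicate 1 was low. The 28 genes left out had a tumor under 3 counts, and no such ratio was made for them.

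The size of the gap between tumors with muscle reads also varied from gene to gene. Among 32 muscle genes with at least 10 counts in test replicates 1 and 2 and control replicate 2, the CPM of test replicate 1 over test replicate 2 ran from 0.907 for *Pvalb* to 23.3 for *Atp2a1*, with a median of 4.35. Several long transcripts lay at the upper end, with 14.5 for *Neb*, 13.9 for *Myh4* and 11.0 for *Ttn*, and short ones such as *Mylpf* (1.38) and *Tnnc2* (1.44) at the lower end, while the long *Xirp2* was low at 1.5. Spearman's correlation of this ratio with gene length was 0.61 over the 32 genes and 0.47 over 12640 genes of all kinds with the same minimum. For test replicate 1 over control replicate 2 it was 0.13 and 0.15. These are correlations across genes of the same libraries, given as a description. Gene length thus moved with the ratios that involve test replicate 2 over the whole transcriptome, and its part in the muscle ratios was not tested. Ratios among the myosin heavy chains, which are all 6037 to 6083 bases long, involve no such difference in length.

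**Figure D5:**
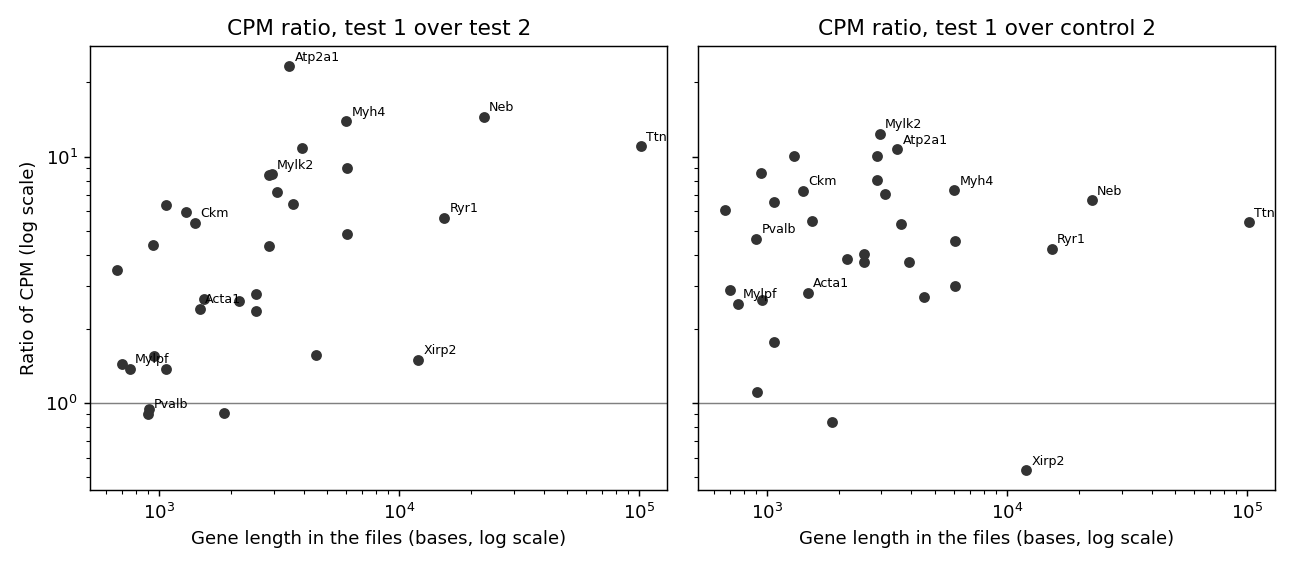
Ratio of CPM between tumors (vertical, log scale) against gene length in bases (horizontal, log scale) for 32 muscle genes, with test replicate 1 over test replicate 2 on the left and over control replicate 2 on the right. On the left the ratio runs from 0.907 to 23.3 and is high for *Neb* and *Myh4* but 1.5 for the long *Xirp2*; on the right it runs from 0.535 for *Xirp2* to 12.4 for *Mylk2*.

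Myogenic transcription factors, which switch on muscle genes in precursor cells, were nearly absent. *Myod1* had 3 counts in control replicate 2 and none elsewhere. *Myog* had 3, 9 and 0 counts in test replicates 1 to 3 and 0, 2 and 2 in control replicates 1 to 3. In a list of 10 genes of satellite cells and of developing or regenerating fibers, 9 were listed, 1 was tested and 0 passed. *Pax7*, the satellite cell factor, was not listed, and *Myf5* had 1 count in control replicate 3 alone. *Myl4*, the embryonic light chain, had 14, 45 and 11 counts in the test and 7, 17 and 14 in the control tumors (log2 fold change 0.98, edgeR adjusted p = 0.755). *Actc1*, the cardiac and fetal actin, had 0 to 18 counts per tumor.

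Chains of developing fibers were highest in test replicate 2, which was not the tumor with the most muscle reads. *Myh3* and *Myh8*, the embryonic and perinatal myosins, together had 15, 40 and 14 counts in test replicates 1 to 3 and 0, 18 and 0 in control replicates 1 to 3. Set against the sum of these and the 3 adult fast chains, they made up 8.73% (95% Wilson interval 6.48% to 11.7%) in test replicate 2, 3.72% (2.23% to 6.15%) in test replicate 3, 2.04% (1.29% to 3.20%) in control replicate 2 and 0.314% (0.190% to 0.517%) in test replicate 1. *Myog* and *Mymk*, a fusion factor of myoblasts, had 9 and 10 counts in test replicate 2, and *Mymk* was picked out after its values were seen. In the list of 10 genes, *Myl4* was also highest in that tumor. *Actc1* was not, with 10 counts there and 18 in control replicate 3, and *Myf6* had 0 counts there. In control replicates 1 and 3 *Myh3* and *Myh8* had 0 counts, of 10 and 26 for the 5 chains, too few to fix a share. Reads shared between neighboring myosin genes make these small counts estimates.

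Muscle genes outside the set moved less uniformly. Of 58 further skeletal muscle genes, 57 were listed and 30 tested, 0 of which had an edgeR adjusted p of 0.05 or less, the lowest being 0.473. Their fitted log2 fold changes were above 0 for 22 and below 0 for 8, beside 51.5% of all tested genes above 0, with a median of 0.61. Test replicate 1 was highest for 16 of the 30, beside 18.5% of all tested genes. The 3 test tumors and control replicate 2 were the 4 highest for 13 of the 30, beside 13.3%. The groups did not overlap for 6 of the 30, which are named here after their values were seen. Over all tested genes, 6.12% were higher and 5.86% lower in every test tumor than in any control tumor. Higher in every test tumor were *Ldb3* and *Csrp3*, both of the Z-disc, *Jph2*, which joins the sarcoplasmic reticulum to the surface membrane, and *Trim72*, a membrane repair protein, with log2 fold changes of 2.04, 2.68, 1.35 and 1.76. Lower in every test tumor were *Apobec2* at -2.49 and *Pfkm*, described next. The edgeR adjusted p of these 6 ran from 0.473 to 0.686. The most abundant of the 57 listed genes were *Fbxo32*, *Pfkm* and *Srl*. *Fbxo32*, a ubiquitin ligase of muscle atrophy, was at 173 ± 58.1 CPM in test and 146 ± 23.5 CPM in control tumors. *Pfkm*, the muscle phosphofructokinase, was at 43.0 ± 10.2 and 59.2 ± 2.51 CPM, and *Srl*, the sarcalumenin, at 14.5 ± 5.39 and 18.9 ± 4.00 CPM (SD, n = 3 each). These 3 had reads in all tumors, and *Pfkm* was lower in every test tumor than in any control tumor, beside 5.86% of all tested genes (log2 fold change -0.46, SE 0.25, edgeR adjusted p = 0.686). *Trim63*, another ligase of muscle atrophy, was picked out after its values were seen. Its counts were 298 in test replicate 1 and 1 to 10 elsewhere, or 30.5 counts for each 100 of *Ckm* in test replicate 1, against 0.585 in test replicate 2, 2.90 in test replicate 3 and 2.10 in control replicate 2. Control replicate 3 had 10 counts of *Trim63* beside 6 of *Ckm*, and control replicate 1 had 1 beside 0, too few for such a ratio.

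Markers of tissues that could accompany muscle were read in the same libraries. Of 10 adipocyte markers, 10 were listed and 5 tested, and their summed level was 455, 121 and 20.8 CPM in test replicates 1 to 3 and 32.8, 25.8 and 35.3 CPM in control replicates 1 to 3. Test replicate 1 was thus highest for fat and muscle. Control replicate 2 was lowest of the controls in this sum, which *Fabp4*, the adipocyte fatty acid carrier, led in all 3 control tumors. For *Adipoq*, *Cfd*, *Retn*, *Plin1* and *Cidea*, however, it lay above control replicates 1 and 3 and test replicate 3. *Retn* and *Plin1* had only 6 and 5 counts in it. *Plin4* went the other way, at 2.70 CPM in control replicate 2 against 6.37 and 11.8 CPM in control replicates 1 and 3. *Lep* and *Ucp1* were also lower in control replicate 2 than in control replicate 3, and *Cidec* had 3 counts in each of these 2 tumors. *Cfd*, the adipsin of fat cells, was at 144, 38.7 and 1.06 CPM in the test and 0.116, 3.68 and 1.49 CPM in the control tumors. All 5 tested adipocyte genes had a log2 fold change above 0, beside 51.5% of all tested genes. An unadjusted edgeR p under 0.05 was found for 3 of them, beside 3.15% of all tested genes with a higher test mean. Of the 5, 4 were highest in test replicate 1, beside 18.5% of all tested genes. Of 8 smooth muscle and myoepithelial markers, 7 were tested, and their sum was 1173, 678 and 296 CPM in the test and 521, 458 and 2971 CPM in the control tumors, highest in control replicate 3, where muscle genes were low. Of 6 tendon markers, 5 were tested, and the sum was 50.3, 64.6 and 21.0 CPM in the test and 92.0, 38.4 and 155 CPM in the control tumors. Of 6 nerve markers, 5 were tested, of which 3 were highest in test replicate 1, and the list summed to 337 to 604 CPM in the test and 483 to 636 CPM in the control tumors. No tested marker of these 4 lists had an edgeR adjusted p of 0.05 or less. Their part in the muscle result was not tested.

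Cardiac muscle shares several of these genes, so its own markers were read. The atrial light chain *Myl7* was not listed, *Myh6*, the alpha chain of the heart, had 1 count in test replicate 1, and *Nppa* had 1 count in control replicate 2. *Tnnt2*, the cardiac troponin T, had 14, 132 and 81 counts in the test and 74, 144 and 196 in the control tumors (log2 fold change -0.78, SE 0.73, edgeR adjusted p = 0.797). *Tnni3*, the cardiac troponin I and the other tested gene of the list, had 20, 15 and 18 counts in the test and 1, 6 and 12 in the control tumors, without overlap (log2 fold change 1.54, SE 0.76, edgeR adjusted p = 0.658). The whole list of 9 genes, of which 8 were listed and 2 tested, summed to 4.15 to 18.4 CPM in the test and 9.95 to 22.6 CPM in the control tumors. Of 8 salivary gland markers, 4 were tested, and the sum was 662, 64.8 and 74.4 CPM in the test and 140, 180 and 339 CPM in the control tumors. *Pip* and *Bhlha15* led this sum in test replicate 1, at 475 and 175 CPM, and *Amy1* was also highest there. *Smr3a*, *Dcpp1*, *Dcpp2* and *Prol1* were highest in a control tumor instead. *Smr3a* was at 1.5, 0.488 and 0.318 CPM in the test and 71.4, 2.16 and 178 CPM in the control tumors. The endothelial list of 5, all tested, was level, at 92.2 to 133 CPM over the 6 tumors, and the epidermal list of 8, with 4 tested, ran from 222 to 320 CPM in the test and from 31.7 to 527 CPM in the control tumors. Whether the muscle reads came from muscle tissue collected with a tumor or from cells of the tumor itself was not tested, and in bulk RNA they cannot be told apart.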

How the data were processed

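Total RNA of each tumor was sequenced at BGI. The submitters' processing notes name mm10, Bowtie, BWA and RSEM. Whether counting used strand is not given in the sources used here. The table the authors deposited for a tumor gives each gene's expected count without normalization, its FPKM, which they scaled for length and depth, and its length. Genes without reads are not listed and were set to 0. Of 18460 NCBI Gene identifiers, 18400 were matched to symbols by identifier and 13 by transcript on GRCm38.p6, and 47 were not matched.

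Expected counts were rounded and tested in R 4.3.3 with edgeR 4.0.16 (filterByExpr, TMM, quasi-likelihood test, 3 test against 3 control tumors, no covariate, Benjamini-Hochberg adjustment over 13706 genes). The study's methods name a Poisson method, NOISeq or EBSeq without saying which was used, and a test that uses the spread between tumors was taken in their place. The standard error is the log2 fold change divided by the square root of F. CPM uses TMM library sizes. Exact permutation tests used log2(CPM + 0.5). Counts called whole lay within 0.005 of a whole number. The study states that each tumor was taken from its own mouse, so p values measure the spread between mice.

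The genes and lists were chosen with earlier results of these data known. All 45 genes could be named, with values in every tumor for myosin chains, fast and slow partners, leading structural, calcium and energy genes and the transcription factors. Of the 2 lists of other muscle genes, the 3 with the highest mean CPM were to be named. Alternatives were DESeq2 1.42.0, RLE, no filter, a minimum of 10 counts in all tumors, limma-trend (limma 3.58.1) on log2(FPKM + 1) and log2(FPKM + 0.1), keeping genes whose mean FPKM was 1 or more, a replicate block, TMM without the muscle lists, and each tumor left out. The methods were tested on simulated data. Promoter sequences are from RefSeq.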

Additional observations from a re-analysis of the deposited data

How the results depend on the processing

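No muscle gene passed a false discovery rate of 0.05 under DESeq2, RLE, either filter, either limma fit, the replicate block or TMM without the muscle lists. The count was 0 to 3 when each tumor was left out, with the 3 found only without control replicate 2. The count over all genes was 344 with DESeq2, 1 with limma on log2(FPKM + 1) and 0 to 182 with each tumor left out, the 182 again without control replicate 2, and 0 otherwise. An unadjusted edgeR p under 0.05 was found for 7 of 32 muscle genes, beside 1153 of all 13706 tested genes. With DESeq2, which gave no p for *Atp2a1*, *Myh2*, *Ttn* and *Neb*, it was 16 of 40, beside 1582 of 18383. With no filter it was 11 of 44 (beside 1482 of 18436). A minimum of 10 counts in every tumor left 8 muscle genes, of which 3 had such a p (1016 of 12188). With limma on log2(FPKM + 1) and log2(FPKM + 0.1) it was 13 and 16 of 30 (930 and 914 of 12890). The replicate block gave 4 of 32 (1056 of 13706). With each tumor left out it was 0 to 29, beside 654 to 2020 of all genes. The median log2 fold change of the muscle genes was 1.47 to 3.02 under the alternatives that keep all tumors and 1.19 to 5.28 with each tumor left out, highest without control replicate 2. *Xirp2* ran from -0.54 to 5.42 with each tumor left out. Of 412 values for single muscle genes under the alternatives, 3, all of *Xirp2*, turned in direction and 3 passed the threshold, the latter all without control replicate 2. As no gene passed at first, few calls could be lost, and a kept direction could hide a large drop. Without test replicate 1 the log2 fold change went from 2.96 to 0.02 for *Myh4*, from 2.21 to 0.02 for *Mylk2*, from 2.60 to 0.12 for *Neb* and from 2.55 to 0.22 for *Ttn*. The mean fast share was higher in the test tumors by 15.4 percentage points, and by 7.25 to 24.5 with each tumor left out. As a mean log2 ratio over 9 fast and slow pairs the difference was 2.09. The cause of these shifts was not tested.

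The replicate numbers are shared by the groups, but the tumors came from different mice. Deviations of same-numbered tumors from their group means correlated at -0.025, 0.121 and -0.137 across genes for numbers 1, 2 and 3, which gave no clear sign of pairing. Whether same-numbered tumors shared a processing batch was not tested. With 3 tumors a group, and 0 to 3 counts for many muscle genes in control replicates 1 and 3, fold changes of those genes are poorly fixed.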
